A study of Mus musculus with 8 samples.

Results

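Dok adaptors and related brakes on tyrosine kinase signalling were followed in hematopoietic stem cells of elektra and wildtype mice. The members are 10 genes taken by symbol: the adaptor genes Dok1, Dok2, Dok3 and Sh2b3, the ubiquitin ligase genes Cbl and Cblb, the phosphatase genes Inpp5d, Ptpn6 and Ptpn11, and Socs2. All 10 were among the 30802 genes measured under a single symbol and among the 15710 genes above the level filter. The list was drawn up around Dok3, which earlier results on these arrays had singled out for its difference between the genotypes, so the values of Dok3 are given as a description and carry no test. One group was Slfn2 elektra/elektra, homozygous for the elektra loss-of-function mutation of Slfn2 throughout the animal, and the other was Slfn2 wt/wt, littermates of the same C57Bl/6 background. No mouse had been treated, and age is not given in the sources used here. Each group had 4 arrays, 1 per sample, of stem cells that had been sorted from bone marrow as c-Kit and Sca-1 positive cells without lineage markers, with high CD9, with CD150 and without CD48. By the sample notes each sample pooled bones of 2 mice and gave about 200 pg of RNA, amplified by 12 cycles of PCR, whereas the series text counts 4 mice per genotype.

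When a cytokine or growth factor binds its receptor, the receptor or a Janus kinase bound to it becomes an active tyrosine kinase, and the phosphotyrosines recruit adaptors, Ras and PI3 kinase activators and STAT factors. The brakes act at several of these steps: Dok proteins dock near the membrane and recruit inhibitors, Sh2b3 binds Janus kinase 2 and Kit, Cbl proteins tag kinases and receptors with ubiquitin, phosphatases remove phosphate from proteins or lipids, and SOCS proteins are induced by STAT factors and feed back. In mice, loss of Sh2b3, or of Dok1 together with Dok2, enlarges the stem cell or myeloid compartment.

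Values are log2 signals after robust multi-array averaging, and differences are elektra minus wildtype on that scale. Precision is limited by how many arrays there are, and a gene's difference had a median standard error of 0.12. Nothing in the labels pairs samples or gives a batch. Array medians lay between 6.11 and 6.26. The genes of the sort markers, Ly6a (Sca-1), Kit, Slamf1 (CD150) and Cd9, were at mean levels of 9.16 to 12.03, Procr, a stem cell marker that was not sorted on, was at 9.05, and Cd48, absent from the surface of the sorted cells, was at 5.99, below the level filter of 6.17. Elektra is a missense mutation, so the level of Slfn2 does not check the labels, and its difference of 0.33 did not pass (standard error 0.22, limma adjusted p = 0.598). In bulk samples such as these, fewer cells that express a gene and less RNA per cell cannot be told apart.

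RefSeq promoter windows of assembly GRCm38.p6, from 250 bases before to 50 bases after a gene start, were matched to 7 of the 10 members. Shown is the window of Dok3, the adaptor gene that was lower in elektra. Beside it is that of Inpp5d, a phosphatase gene whose genotypes overlapped and which has the most AGGAAG matches of the 7. Capitals mark exact matches to AGGAAG, a form of ETS site, on either strand. The Dok3 window is chr13:55528489-55528788, minus strand, and the Inpp5d window is chr1:87620062-87620361, plus strand.
Dok3: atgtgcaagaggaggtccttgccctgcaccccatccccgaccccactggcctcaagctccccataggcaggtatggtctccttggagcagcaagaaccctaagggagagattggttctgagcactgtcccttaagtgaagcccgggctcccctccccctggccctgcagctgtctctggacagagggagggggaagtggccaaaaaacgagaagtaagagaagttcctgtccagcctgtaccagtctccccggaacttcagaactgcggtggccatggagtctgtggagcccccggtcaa
Inpp5d: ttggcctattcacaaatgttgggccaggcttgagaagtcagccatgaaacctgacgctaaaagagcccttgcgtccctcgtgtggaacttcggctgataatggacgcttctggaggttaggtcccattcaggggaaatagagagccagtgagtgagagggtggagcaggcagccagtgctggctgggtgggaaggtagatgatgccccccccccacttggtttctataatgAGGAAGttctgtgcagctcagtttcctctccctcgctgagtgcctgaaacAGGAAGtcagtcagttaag
AGGAAG was found 0 times in the Dok3 window, 2 times in that of Inpp5d and 1 time each in those of Cblb and Ptpn6. It was found 0 times in those of Cbl, Ptpn11 and Sh2b3. AGGAAG occurs in 35.4% of the 32851 windows of all genes. Other forms of ETS site were not counted, so 0 does not mean that a window lacks them. Neither the RUNX core TGTGGT, present in 16.8% of all windows, nor the STAT motif TTCNNNGAA, present in 8.30%, matched on either strand in any of the 7. GC content was 59.7% with 6 CpG in the Dok3 window and 53.7% with 6 CpG in the Inpp5d window, against 74.0% with 43 CpG in that of Cbl and 68.7% with 37 CpG in that of Ptpn11. The median over all windows was 52.7% with 7 CpG.

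Of the 3 Dok genes, Dok3 had the lower level in elektra, while Dok1 and Dok2 overlapped between the genotypes. Dok proteins carry a pleckstrin homology domain, a phosphotyrosine-binding domain and a tail of docking tyrosines. Dok1 and Dok2 recruit RasGAP and damp Ras signalling, and Dok3, best known from B cells and macrophages, works instead with Grb2 and the lipid phosphatase SHIP1. Dok3 read 7.49, 7.59, 7.61 and 7.33 on elektra arrays 1 to 4 and 8.16, 7.96, 8.02 and 8.07 on wildtype arrays 1 to 4. Every elektra array lay below every wildtype array, with a gap of 0.35 between the groups. The means were 7.51 ± 0.13 and 8.05 ± 0.09 (SD, n = 4 each), a difference of -0.55 with a standard error of 0.10, or 1.46-fold lower in elektra. In the authors' deposited table its signed fold change is -1.46. Over 19 other settings the difference ranged from -0.59 to -0.49, the latter without elektra replicate 4, the lowest of the elektra arrays.

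Dok1 read 7.88, 7.92, 8.003 and 8.18 in elektra and 8.08, 7.82, 8.01 and 8.30 in wildtype. The lowest of its 8 values was a wildtype array and so was the highest. The difference was -0.06 with a 95% interval from -0.32 to 0.20 (limma adjusted p = 0.883). Dok2 read 7.75, 7.91, 7.85 and 8.13 in elektra and 7.88, 8.04, 7.94 and 8.12 in wildtype, with the groups interleaved. Its difference was -0.09 with an interval from -0.32 to 0.15 (limma adjusted p = 0.784). The replicate 4 arrays gave the highest Dok1 and Dok2 value of their genotype, whereas elektra replicate 4 gave the lowest Dok3 value. Taken within each array, the log2 ratio of Dok3 to Dok1 was lower in elektra by a mean of -0.49 and that of Dok3 to Dok2 by -0.46, while the ratio of Dok1 to Dok2 differed by 0.03. These ratios use the Dok3 values that led to its choice and were not tested.

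The genes listed next to Dok3 were looked at because its feature could share signal with them. Pdlim7 differed by -0.07, Dbn1 by -0.12, Ddx41 by 0.14 and Fam193b by -0.11, and the genotypes overlapped for each of the 4. Their means differed in both directions.

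**Figure D1:**
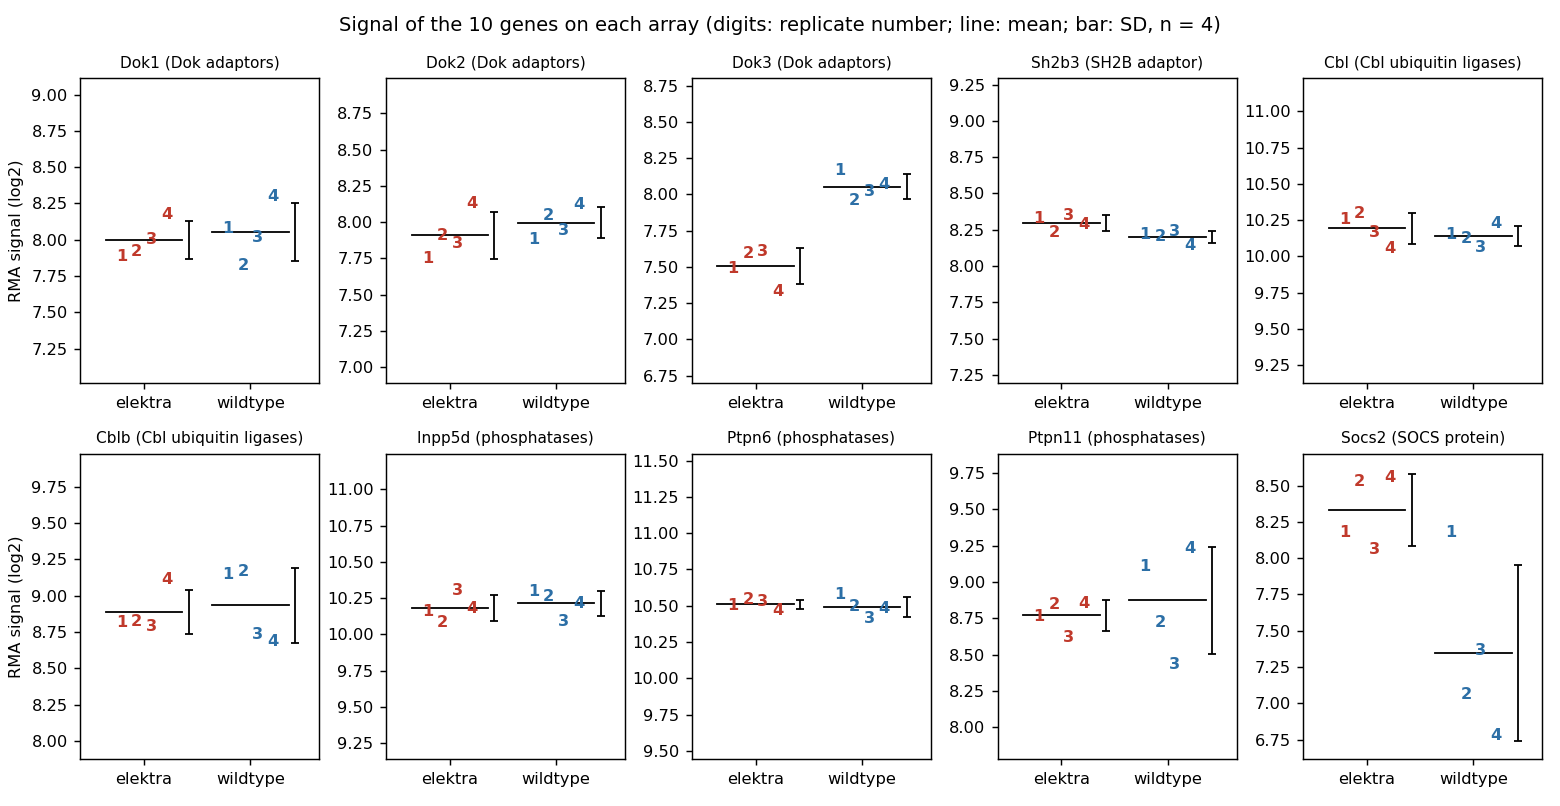
RMA log2 signal of the 10 genes on every array, with elektra in red, wildtype in blue, digits for replicate numbers, lines for means and bars for SD (n = 4 each). All panels span the same number of log2 units. The genotypes stand apart for Dok3, while wildtype replicate 1, at 8.18, lies among the elektra arrays for Socs2 (feature of highest mean).

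Sh2b3, Cbl and Cblb differed little. Sh2b3, also called Lnk, is an SH2 adaptor that restrains cytokine signalling in stem cells. Its arrays read 8.33, 8.23, 8.34 and 8.28 in elektra and 8.22, 8.20, 8.23 and 8.14 in wildtype. Elektra replicate 2 fell within the wildtype range, and the other 3 elektra arrays lay above it. The difference was 0.10, with an interval from -0.08 to 0.28 (limma adjusted p = 0.669). Both SDs, 0.05 in elektra and 0.04 in wildtype, were small beside the spread that limma assigns from all genes, and the unadjusted p in the authors' deposited table is 0.0266.

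Cbl encodes the ubiquitin ligase that sends Kit and other receptors for degradation. It read 10.25, 10.30, 10.17 and 10.05 in elektra and 10.15, 10.13, 10.06 and 10.23 in wildtype, a difference of 0.05 (95% interval -0.15 to 0.25, limma adjusted p = 0.863). The elektra arrays gave both its highest and its lowest value. Cblb, a second ligase of the family and a brake on antigen receptor signalling in lymphocytes, read 8.82, 8.82, 8.79 and 9.11 in elektra and 9.15, 9.16, 8.73 and 8.69 in wildtype. The wildtype arrays fell into 2 higher and 2 lower ones, with all elektra values between them. Its difference was -0.05 (95% interval -0.35 to 0.25, limma adjusted p = 0.923), and its sign turned without wildtype replicate 1 (0.02) or wildtype replicate 2 (0.03) and with arrays centred on their medians (0.00057).

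The 3 phosphatase genes did not separate the genotypes either. Inpp5d encodes SHIP1, which removes a phosphate from the lipid product of PI3 kinase. It read 10.16, 10.09, 10.30 and 10.18 in elektra and 10.29, 10.26, 10.09 and 10.21 in wildtype, a difference of -0.03 (95% interval -0.23 to 0.17, limma adjusted p = 0.915). Ptpn6 encodes SHP-1, which dephosphorylates receptors, kinases and inhibitory receptor tails in blood cells. It read 10.50, 10.54, 10.53 and 10.47 in elektra and 10.58, 10.49, 10.41 and 10.48 in wildtype, the narrowest range of the 10 genes, and the difference was 0.02 (95% interval -0.16 to 0.20, limma adjusted p = 0.956). The signs of both turned with the scaling, Inpp5d to 0.01 when each array was centred on its median and Ptpn6 to -0.04 after quantile normalization.

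Ptpn11 encodes SHP-2, which is related to SHP-1 but mostly promotes Ras signalling downstream of receptors. It read 8.76, 8.85, 8.62 and 8.85 in elektra and 9.11, 8.72, 8.43 and 9.23 in wildtype. The wildtype arrays spread on both sides of all elektra arrays, with an SD of 0.37 against 0.11. The difference was -0.10 (95% interval -0.47 to 0.26, limma adjusted p = 0.843), and it ranged from -0.25 without wildtype replicate 3 to 0.02 without wildtype replicate 4.

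Socs2, which encodes a SOCS protein induced through STAT5 and known as a feedback regulator of growth hormone and cytokine receptors, had a higher mean in elektra. The feature of highest mean read 8.18, 8.53, 8.06 and 8.56 in elektra and 8.18, 7.06, 7.36 and 6.78 in wildtype. Wildtype replicate 1 lay within the elektra range, and the other 3 wildtype arrays lay below all elektra arrays. The means were 8.33 ± 0.25 and 7.34 ± 0.61 (SD, n = 4 each), a difference of 0.99 with a standard error of 0.26, or 1.98-fold (95% interval 1.33-fold to 2.95-fold), which did not pass (limma adjusted p = 0.269). Without wildtype replicate 1 it was 1.27 (limma adjusted p = 0.0551, the lowest of all its settings, in which the highest was 0.571), and with each array's interquartile range as a covariate it was 0.62.

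The 2 features named Socs2 did not give the same picture. Feature numbers follow the genome, since 98.4% of neighbouring named features lie on 1 chromosome in RefSeq. Within 10 positions on either side of the feature of highest mean, 15 of 16 named neighbours lie on chromosome 12 and 0 on chromosome 10, where RefSeq places Socs2. For the second feature 14 of 15 named neighbours lie on chromosome 10. For every other member, all named neighbours lie on the chromosome that RefSeq gives the gene. The neighbours of the first feature thus do not bear out the symbol Socs2. Its link to Socs2 rests on the symbol in the authors' deposited table alone.

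The second feature read 7.26, 7.58, 7.17 and 7.32 in elektra and 6.82, 6.86, 6.78 and 6.96 in wildtype. The elektra arrays all exceeded the wildtype arrays, and wildtype replicate 1 did not stand apart. The means were 7.33 ± 0.18 and 6.86 ± 0.08 (SD, n = 4 each), a difference of 0.48 with a standard error of 0.11, or 1.39-fold (95% interval 1.18-fold to 1.64-fold). In place of the first feature in the fit over all genes it did not pass (limma adjusted p = 0.199), and with single arrays left out the difference stayed between 0.39 and 0.53. The genes next to it on chromosome 10 overlapped between the genotypes, with Cradd at -0.06, Plxnc1 at -0.14, Mrpl42 at 0.18 and Nudt4 at 0.28. This feature was taken up after its values had been seen.

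**Figure D2:**
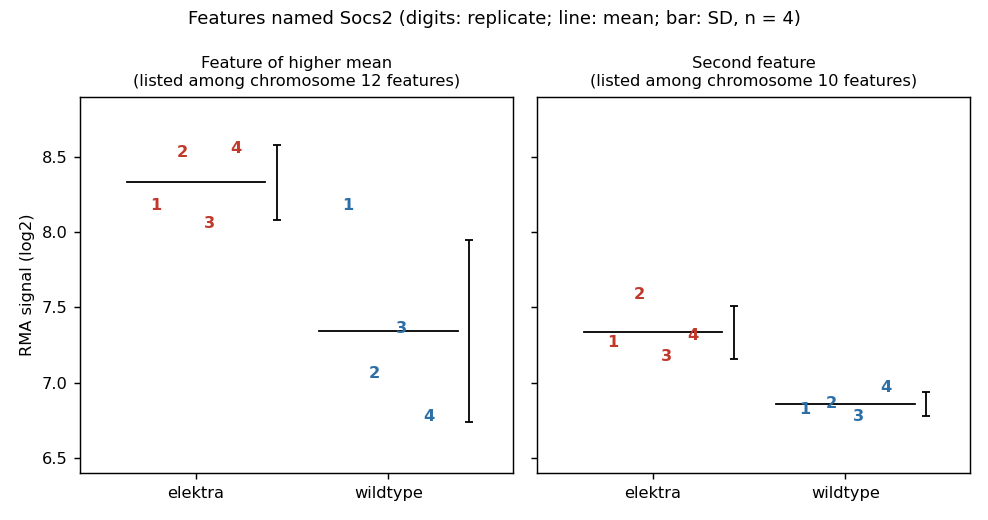
Log2 signal on every array for the 2 features named Socs2, with digits for replicate numbers, lines for means and bars for SD (n = 4 each). Wildtype replicate 1 is at 8.18 on the feature of higher mean and at 6.82 on the second feature, where the genotypes do not overlap.

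Over the 10 genes, 4 had a higher and 6 a lower mean in elektra, with a median difference of -0.04 against 0.01 over all genes tested. None of the 10 passed an adjusted p of 0.05 with limma, which called 0.0382% of all genes. At an unadjusted p of 0.05 it counted 2 members, Dok3 and Socs2 (by its feature of highest mean), against 11% of all genes. The groups did not overlap for 1 member, Dok3 on the lower side, against 2.37% of all genes on that side and 6.26% on either. Since Dok3 was chosen on this contrast, nothing is read from these counts. For the other 8 genes, leaving out Dok3 and Socs2, the 95% intervals allowed folds from 0.724 (Ptpn11) to 1.21 (Sh2b3).

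**Figure D3:**
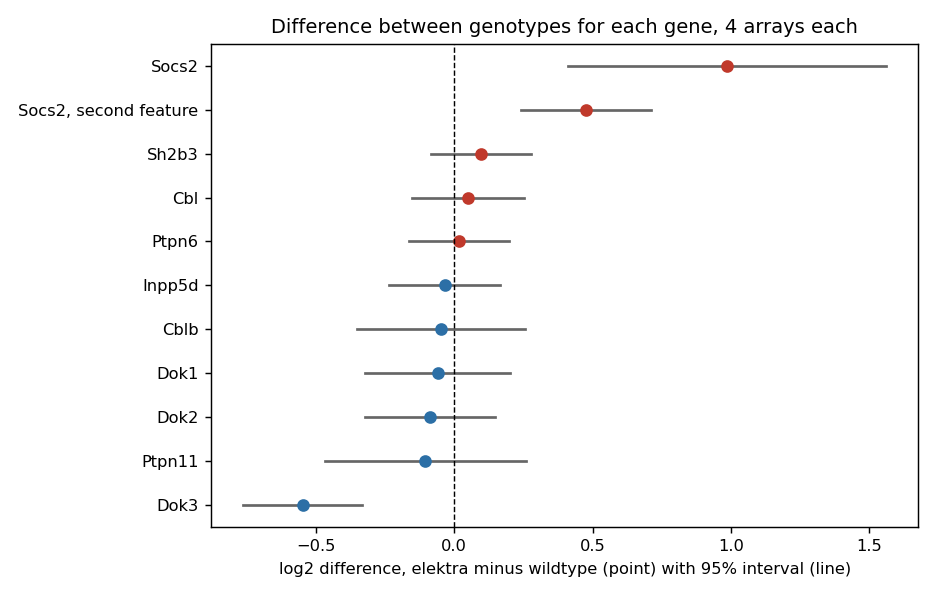
Log2 difference, elektra minus wildtype, for each of the 10 genes and the second Socs2 feature (points), with 95% intervals from limma (lines, 4 arrays per genotype). Dok3 at -0.55 is shown as a description, the features of Socs2 lie at 0.99 and 0.48, and the intervals of the other 8 genes include 0.

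The members differed in which arrays were high. Wildtype replicate 1 was above its genotype's mean for 9 of the 10 genes, with Dok2 the exception, whereas wildtype replicate 3 and elektra replicate 1 were above theirs for 2 each. The remaining arrays were above it for 5 or 6 genes. Wildtype replicate 4 held 3 of the 10 lowest values (Sh2b3, Cblb and Socs2) and 2 of the highest (Dok1 and Ptpn11).

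Around these brakes, 155 further genes of tyrosine kinase signalling were tested, of 185 listed, and limma passed 0 of them over all genes. With an unadjusted p under 0.05, 11 were higher and 5 were lower, against 7.02% and 3.95% of all genes, and the groups did not overlap for 7 higher and 6 lower, against 3.9% and 2.37%. Their median difference was 0.04. The split depended on scaling, with 6 higher and 11 lower after quantile normalization and 17 higher and 4 lower when each array was centred on its median. The counts over all genes moved the same way, from 1103 higher and 621 lower. They were 848 and 796 after quantile normalization and 1503 and 331 with centring.

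Receptor genes had members on both sides. Of 26 tested receptors of cytokines and growth factors, 3 were higher and 3 were lower at the unadjusted threshold of 0.05, with a median of 0.03. At this threshold 7.02% of all genes were higher and 3.95% were lower. Nothing is read from the counts of single lists given here and below. Igf1r, the receptor of insulin-like growth factor, differed by -0.34 (limma adjusted p = 0.268) and the platelet-derived growth factor receptor gene Pdgfrb by -0.33 (limma adjusted p = 0.343), both without overlap.

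Among 21 cytoplasmic tyrosine kinase genes, 2 passed that threshold as higher and 0 as lower, against 7.02% and 3.95% of all genes. The Src family kinase gene Fyn read 8.73, 8.52, 8.71 and 8.33 in elektra and 8.14, 7.78, 7.95 and 8.25 in wildtype, without overlap, a difference of 0.54 (limma adjusted p = 0.259). Fert2, the file's symbol for the kinase gene Fer, was at 0.31, also without overlap, and Ptk2, the focal adhesion kinase gene, at 0.31 with overlap (limma adjusted p = 0.363 and 0.456).

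Of 36 adaptor and effector genes that carry the signal onward, 1 passed it as higher and 1 as lower. Of all genes, 7.02% passed it as higher and 3.95% as lower. Crk, whose SH2 domain binds tyrosine-phosphorylated docking proteins such as Cbl, read 8.40, 8.30, 8.28 and 8.43 in elektra and 8.02, 8.03, 7.97 and 7.85 in wildtype. Its groups did not overlap, and the difference was 0.38 (limma adjusted p = 0.214). Gab1, a docking protein that recruits SHP-2, differed by -0.53 (limma adjusted p = 0.321) and the insulin receptor substrate gene Irs2 by -0.36 (limma adjusted p = 0.474), both with overlap.

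Other brakes gave few differences. Among 35 tested phosphatases and further brakes, 2 passed it as higher and 1 as lower, against 7.02% and 3.95% of all genes. Ubash3b, which encodes a phosphatase that binds Cbl, was at 0.31 (limma adjusted p = 0.359). Csk, the kinase that inactivates Src family kinases, was at 0.30 (limma adjusted p = 0.392). The phosphatase gene Ptpn18 was at -0.24 (limma adjusted p = 0.363). The other 10 tested Dok, SH2B, Cbl and SOCS genes had 0 past it, with Sh2b2 at 0.16, Socs5 at 0.16 and Socs1 at 0.12. The 18 STAT and STAT5 target genes also had 0, with Stat5b at 0.16 and the kinase gene Pim2 at 0.16. After adjustment limma called 0 genes in these lists.

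Of 12 tested genes in the list of inhibitory receptors, 3 passed the unadjusted threshold as higher and 0 as lower. The shares over all genes were 7.02% and 3.95%, and nothing is read from the count. Ly9, a receptor of the SLAM family, was at 0.68 with overlap (limma adjusted p = 0.321), the collagen-binding receptor gene Lair1 at 0.43 and Pecam1, an adhesion receptor of platelets and endothelium, at 0.23, the latter pair without overlap (limma adjusted p = 0.350 and 0.409).

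**Figure D4:**
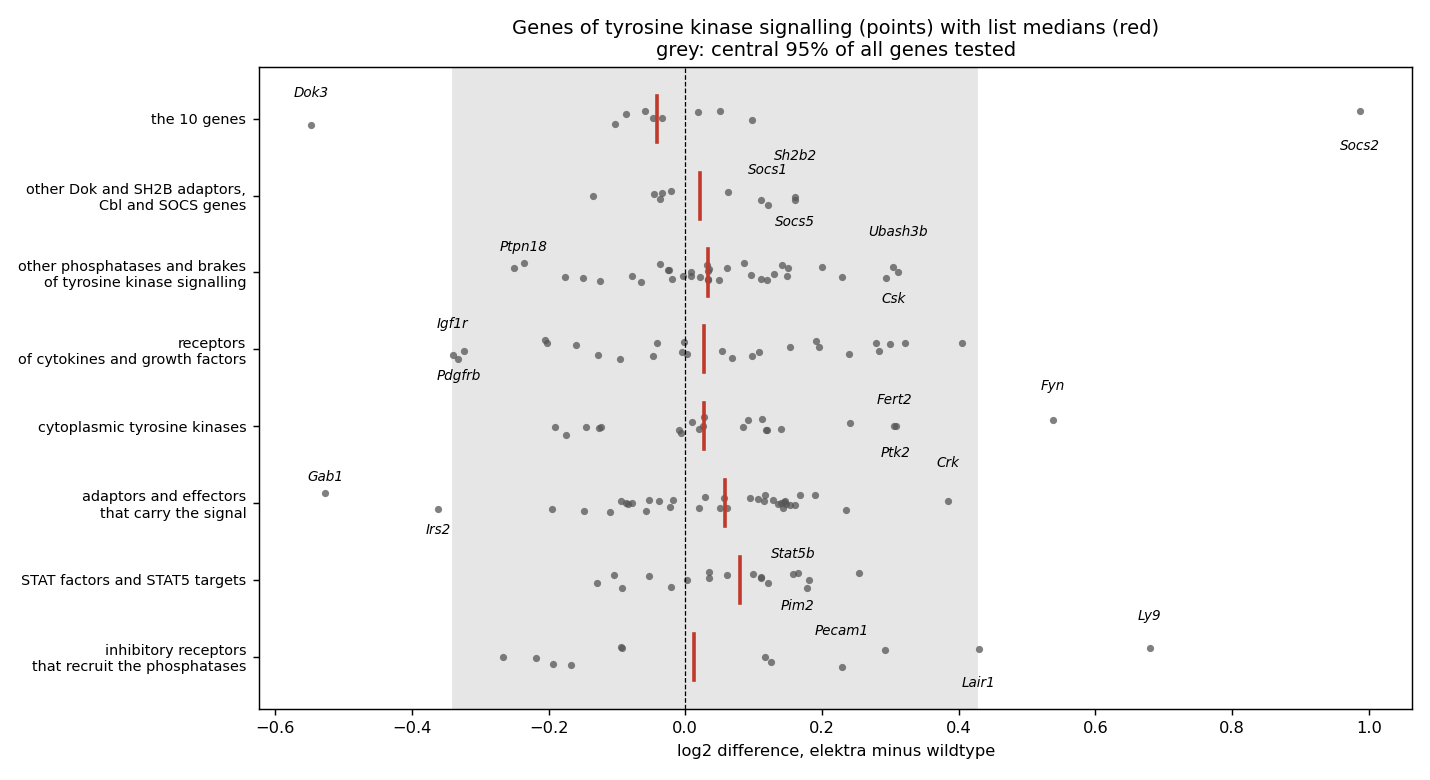
Log2 difference, elektra minus wildtype, of the 10 genes and of the other genes of tyrosine kinase signalling by list (points), with list medians in red and the central 95% of all genes tested, -0.34 to 0.43, in grey. Dok3 and Socs2 lie outside the grey band, as do Gab1, Irs2, Igf1r, Fyn, Lair1 and Ly9 among the named pathway genes.

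Markers of other blood cells were read beside these results, since Dok3 and Lair1 are also genes of mature lymphoid and myeloid cells. Of 10 B cell markers 1 lay above the level filter, Cd79b, and the summed level of the list, as the log2 of the summed linear signals, was 9.16 to 9.48 in elektra and 9.24 to 9.36 in wildtype. Of 10 monocyte and macrophage markers 5 lay above the filter, with sums of 10.30 to 10.56 and 10.11 to 10.53, so both lists overlapped between the genotypes. Sums of the stem cell, granulocyte, T and NK cell, mast cell, erythroid and stromal markers overlapped as well. Among these lists, the highest elektra sum exceeded the wildtype range for granulocyte, T and NK cell, mast cell and erythroid markers. It did not for stem cell and stromal markers. Granulocyte sums were 9.69 to 10.96 in elektra and 9.77 to 10.22 in wildtype. Erythroid sums were 8.82 to 9.47 in elektra and 8.75 to 9.09 in wildtype. Early progenitor markers, 4 of 5 above the filter, summed to 10.82 to 10.90 in elektra and 10.17 to 10.60 in wildtype, and megakaryocyte markers, 6 of 7 above it, to 10.97 to 11.09 and 10.68 to 10.77. The progenitor and megakaryocyte sums thus did not overlap between the genotypes. Such sums weigh the genes of highest signal most. The mean log2 level of the megakaryocyte list did overlap, at 7.53 to 7.74 in elektra and 7.39 to 7.55 in wildtype. Its 6 tested genes differed by -0.05 to 0.61, with a median of 0.10. The mean level of the progenitor list did not overlap. The part of these lists in the differences of Dok3 and Socs2 was not tested.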

How the data were processed

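The authors' log2 signals come from RMA in Affymetrix Expression Console 1.4, per the submitters' processing notes. In the deposited workbook these log2 values are given for 33793 features, beside the authors' log2 ratio, a signed fold change kept as a score (the negative reciprocal where elektra is lower) and an unadjusted p-value, per the file headers. The deposited series table holds log2 values of 41345 features and differs by at most 0.158. The array design is not given in the sources used here.

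Features with 1 symbol and a mean at or above the median feature mean (6.17) were kept, the feature of highest mean for each symbol. Genotypes were compared with limma 3.58.1 in R 4.3.3 (lmFit and eBayes, two-sided, Benjamini-Hochberg over all 15710 genes, threshold 0.05), and 95% intervals come from that fit. The procedure was tested on simulated data. Alternatives changed the level filter, scaling, variance model, feature choice, source table, covariates and the arrays included. P-values measure the spread between samples, which may be partly technical.

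Members and lists were chosen with earlier results of these data known. Named genes were the members, the 3 of smallest p in each of 7 pathway lists, the 3 most like and the 3 most unlike Dok3, sort markers and Procr, the B cell marker of highest level and Slfn2. Neighbours of the Dok3 and Socs2 features were added after their values were seen. List genes absent by symbol were sought by RefSeq synonyms. Deviations of same-numbered arrays correlated at 0.14, 0.02, 0.13 and -0.0017, so replicate numbers were not taken as pairs. Xist was low on replicate 3 of both genotypes, at 5.06 in elektra and 5.37 in wildtype. On the other arrays it was 10.26 to 10.79. Sex was not a covariate in any fit. Whether same-numbered samples were collected together was not tested. No sample column was left unused. Some genes under the naming rule are not reported here.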

Additional observations from a re-analysis of the deposited data

Results flagged for a closer look

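Cblb on elektra replicate 4, at 9.11, stood apart from the other 3 elektra arrays, which lay between 8.79 and 8.82. The gap was 0.893 of the range of the group, above Dixon's critical value for 4 samples. It was 1 of 64 groups of 4 arrays examined, and chance flags about 1 in 20. Without this array the Cblb difference was -0.12 (limma adjusted p = 0.801).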

How the results depend on the processing

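Members past the adjusted threshold numbered 0 in all alternatives run. Members at an unadjusted p of 0.05 numbered 2 in each, Dok3 and Socs2, against 11% of all genes in the main fit. Dok3 was chosen on this contrast, so nothing is read from that count. Alternatives were run for 31 genes, the 10 members and 21 pathway genes, of which none was carried past the threshold and 26 kept their sign. They were not run for the other genes named. Genes past the threshold, 6 in all, became 3 with no level filter, 13 with the stricter filter, 3 with arrays centred on their medians, 18 with trend and robust eBayes, 0 with the interquartile range as a covariate, 0 with the replicate block, 2 without both low-Xist arrays (replicate 3 of each genotype) and 0 to 4 without single arrays. Members whose groups did not overlap, 1 in all, became 2 with the mean of all features, 2 with the chromosome 10 feature of Socs2 (an alternative chosen after seeing the data), 3 without both low-Xist arrays and 1 to 2 without single arrays. Pathway genes whose groups did not overlap, 13 in all, became 8 after quantile normalization, 27 without both low-Xist arrays and 14 to 23 without single arrays. Fewer arrays make overlap rarer, and the shares over all genes in these settings are not given here. Nothing is therefore read from these counts of members and pathway genes. Signs turned for Cblb (0.00057) and Inpp5d (0.0142) with arrays centred on their medians, and for Ptpn6 after quantile normalization (-0.0412), with the interquartile range (-0.00083) and without both low-Xist arrays (-0.0139). Without single arrays Dok1 ranged from -0.136 to 0.0241, Cblb from -0.130 to 0.0295, Ptpn6 from -0.00832 to 0.0467 and Ptpn11 from -0.252 to 0.0163. The cause was not tested. The labels pair no samples by replicate number. With that number as a block, the Dok3 difference was -0.55 with a standard error of 0.11. Of the elektra arrays, 2 of 4 correlated best with the wildtype array of their own number.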

Other observations

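Among 11503 named protein-coding genes, those most like Dok3 by Pearson correlation over the 8 arrays were Epha4, an ephrin receptor tyrosine kinase gene (r = 0.975), the transcriptional coactivator gene Eya2 (r = 0.961) and the lipoprotein gene Apoe (r = 0.958). Most unlike it were the thioredoxin reductase gene Txnrd1 (r = -0.986), the guanine nucleotide exchange factor gene Dock10 (r = -0.973) and the adaptor gene Crk (r = -0.954). Their differences between genotypes were -0.57 for Epha4, -0.39 for Eya2, -0.22 for Apoe, 0.24 for Txnrd1, 0.49 for Dock10 and 0.38 for Crk. The genotypes stand apart for Dok3, so these correlations include the genotype difference and are given as a description. With each genotype's mean removed, r was 0.808 for Epha4, 0.575 for Eya2, 0.842 for Apoe, -0.928 for Txnrd1, -0.714 for Dock10 and -0.564 for Crk. The genes were picked for extreme r over the same arrays, which favours large values here too. Nothing is therefore read from these values.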
